A study of Mus musculus with 4 samples.

Results

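The 10 genes described here encode enzymes, a transporter and an accessory protein that make or store the small-molecule mediators of mast cells: Hdc, Tph1 and Slc18a2 for amines, Alox5, Alox5ap and Ltc4s for leukotrienes, Hpgds, Ptgs1 and Ptgs2 for prostaglandins, and Cyp11a1 for steroids. They were chosen by name, with earlier results of these data known, and are 10 of the 16500 gene symbols listed in at least 1 library of the study. Their transcripts were followed in mast cells, defined as cells with at least 3 UMIs (unique molecular identifiers, each standing for 1 captured transcript) of the mast cell protease gene Cpa3 and none of Cd3d, Cd3e, Cd3g or Cd79a. This gate held 1848 of 14373 cells, of which 1775 came from the stomach. Live CD45.2+ cells sorted from intraepithelial preparations of C57BL/6 mice without infection were profiled with the 10x Genomics 3′ v2 chemistry, and each of 4 organs (stomach, small intestine, cecum, colon) gave 1 library. All 4 libraries share strain, sort and the absence of infection, and no group carries a transgene or a treatment. The labels do not give the age of the mice, how many were used, or whether they were pooled. The extraction text names colons in every record, so the tissue of each library rests on its tissue label.

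Mast cells store histamine and serotonin in granules and release them within moments of activation, whereas leukotrienes and prostaglandins are made on demand from arachidonic acid of the cell membrane. Hdc makes histamine from histidine, Tph1 carries out the rate-limiting step of serotonin synthesis outside the brain, and Slc18a2 (VMAT2) pumps both amines into granules. Alox5 with its partner Alox5ap (FLAP) makes leukotriene A4, which Ltc4s joins to glutathione. The cyclooxygenases Ptgs1 and Ptgs2 make prostaglandin H2, which Hpgds converts to prostaglandin D2, a mediator for which mast cells are well known. Cyp11a1 makes pregnenolone from cholesterol in mitochondria, the first step of steroid synthesis.

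The bases before the transcription start are shown for 4 genes that carry the amine, leukotriene and steroid results. Tph1 and Cyp11a1 had the most alike levels of any 2 of the 10 genes over cell classes and libraries, and Slc18a2 and Alox5 are the members with a GATAA match in this window. RefSeq windows (GRCm38.p6) were matched by symbol for 9 of the 10 genes, in 11 windows of 250 bases each, read 5′ to 3′ on the strand of the gene. Capitals mark GATAA (or TTATC on the other strand), the letters read by GATA factors, and CACGTG or CATGTG (or CACATG), E-box letters that MITF can read.
Tph1, chr7:46672538-46672787, minus strand: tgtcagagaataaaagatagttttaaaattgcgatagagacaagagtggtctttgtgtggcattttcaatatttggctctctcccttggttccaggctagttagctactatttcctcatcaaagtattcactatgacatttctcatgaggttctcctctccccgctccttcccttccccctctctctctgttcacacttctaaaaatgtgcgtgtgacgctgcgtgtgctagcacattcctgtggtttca
Cyp11a1, chr9:57997774-57998023, plus strand: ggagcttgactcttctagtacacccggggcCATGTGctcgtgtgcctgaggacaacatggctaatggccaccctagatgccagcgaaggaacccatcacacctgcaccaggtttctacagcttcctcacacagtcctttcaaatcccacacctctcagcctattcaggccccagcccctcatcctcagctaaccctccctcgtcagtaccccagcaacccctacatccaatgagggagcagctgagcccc
Slc18a2, chr19:59260628-59260877, plus strand: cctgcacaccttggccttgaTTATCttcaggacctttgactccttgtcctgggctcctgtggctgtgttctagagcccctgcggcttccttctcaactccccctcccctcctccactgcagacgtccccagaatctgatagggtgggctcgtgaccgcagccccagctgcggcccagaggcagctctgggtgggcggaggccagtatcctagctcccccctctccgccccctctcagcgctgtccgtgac
Alox5, chr6:116461179-116461428, minus strand: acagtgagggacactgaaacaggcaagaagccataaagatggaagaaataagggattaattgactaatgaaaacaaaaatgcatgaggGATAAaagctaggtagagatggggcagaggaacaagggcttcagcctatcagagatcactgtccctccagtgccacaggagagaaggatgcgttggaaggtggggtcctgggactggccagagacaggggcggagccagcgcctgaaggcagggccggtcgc
GATAA occurred in 2 of the 11 windows, beginning 230 bases before the start in Slc18a2 and 162 in Alox5, and the E-box letters in 2, those of Cyp11a1 at 220 and Hpgds at 80. Of all 32817 windows of the same length, 22.6% held GATAA and 17.6% held an E-box, and no match of one motif overlapped one of the other in these 4 windows. The Tph1 window held neither. The Cyp11a1 window belongs to a RefSeq start that lies before the gene as annotated in GENCODE M21. A match describes letters only.

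Total depth was 8568438 to 12988676 UMIs per library, with medians of 1707 to 2986 UMIs per cell. Any 2 libraries shared 1 to 6 cell barcodes. In the stomach the mast gate held 55.5% of 3197 cells, against 1.77% of small intestine (56 cells), 0.353% of cecum (15 cells) and 0.0532% of colon (2 cells). All 10 mast markers were detected in the stomach gate and summed to 129789 CPM (UMIs of the gene per 1000000 UMIs of the class), against 326 to 559 CPM in the other stomach classes. Cpa3, which the gates fixed, gave 6741 CPM of that sum. The other stomach classes were macrophages (C1q genes, 201 cells), NK/ILC1 cells (Ncr1 or Klrb1c, 265), type 2 innate lymphoid cells or ILC2 (Gata3 with others, 49), T cells (Cd3 genes, 285) and B cells (Cd79a, 77), and 545 cells met no gate. Of the mast gate, 10 cells also met the macrophage gate, 8 the NK/ILC1 gate and 3 the ILC2 gate, and no doublet caller was run. Of 8 enteroendocrine markers, 4 (Chgb, Sst, Tac1 and Neurod1) were at 0 in stomach mast cells and the list summed to 4.46 CPM, and all 8 were at 0 in mast cells of small intestine and cecum. Of 6 tuft cell markers, Dclk1, Trpm5, Pou2f3 and Il25 were at 0 in mast cells of all 4 libraries. The tuft list summed to 11.7 CPM in stomach, 196 in small intestine and 586 in cecum, nearly all of it Avil, and its part in the results was not tested. Genes of the basophil list were not at 0: the list summed to 1043 CPM, of which Cd200r3 gave 713. This sum was not used to tell basophils from mast cells.

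The amine genes were high in stomach mast cells and low in every other stomach class. Tph1 (chr7:46644641-46672537) reached 1870.4 CPM in mast cells (95% Poisson interval 1829.5 to 1912, from 7966 UMIs), against 18.1 in T cells, 12.3 in NK/ILC1 cells, 9.2 in macrophages, 4.07 in B cells and 0 UMIs in ILC2. These are 3′ tags counted once per molecule, so levels were not divided by gene length, and the intervals cover counting error only. Tph1 was 203-fold higher than in macrophages (interval 107 to 445). Hdc (chr2:126593667-126619299) stood at 247 CPM in mast cells (232.5 to 263), and at 18.1 in T cells, 16.3 in B cells, 8.11 in ILC2, 2.46 in NK/ILC1 cells and 2.05 in macrophages. Slc18a2 (chr19:59260896-59296012) stood at 236 CPM in mast cells (222 to 251), an interval that overlaps that of Hdc, and at 8.11 to 24.4 CPM in the other classes. No interval of the 3 genes in mast cells overlapped that of another stomach class.

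Cyp11a1 (chr9:58006411-58027023) had a pattern like that of Tph1. It reached 896 CPM in stomach mast cells (868 to 925, 3817 UMIs) and at most 8.15 CPM in any other class, with 5 UMIs in macrophages, 3 in NK/ILC1 cells, 6 in T cells, 2 in B cells and 0 in ILC2. After each cell was thinned to 1000 UMIs, 56.3% of mast cells (interval 54.0 to 58.7%) still held a Cyp11a1 UMI, against 0.377% of NK/ILC1 cells and 0.498% of macrophages. Median depth before thinning was 1949 UMIs in mast cells, 2784 in NK/ILC1 cells and 4584 in macrophages, and without thinning the mast cell share was 76.5%. Of all Cyp11a1 UMIs in the stomach library, 93.3% lay in the mast gate.

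The leukotriene genes divided. Alox5 (chr6:116410077-116461178), the lipoxygenase itself, stood at 467 CPM in stomach mast cells (446 to 488), followed by ILC2 at 56.7 (22.8 to 117, from 7 UMIs) and macrophages at 24.5. Its partner Alox5ap (chr5:149264767-149288153) was second only to Tph1 among the 10 genes in mast cells, at 1411 CPM (1375 to 1447), but macrophages also carried it at 258 CPM (227 to 292), so the ratio was 5.48 (4.83 to 6.24). Ltc4s (chr11:50236461-50238616), which completes leukotriene C4, went the other way. It stood at 30.8 CPM in mast cells (25.7 to 36.5) and at 85.9 in macrophages (68.5 to 106), 2.79-fold higher in macrophages (2.10 to 3.70), although 1 macrophage held 19.0% of that class's 84 UMIs.

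Of the prostaglandin genes, only the terminal synthase was abundant in mast cells. Hpgds (chr6:65117293-65144908) stood at 421 CPM in stomach mast cells (402 to 441) and at 264 in macrophages (233 to 298). B cells had 65.2 CPM, ILC2 48.6, T cells 30.2 and NK/ILC1 cells 12.3. Ptgs1 (chr2:36230426-36252272), the constitutive cyclooxygenase, stood at 57.3 CPM in mast cells (50.3 to 64.9) and 145 in macrophages (122 to 171), 2.53-fold higher in macrophages (2.05 to 3.13). Ptgs2 (chr1:150100031-150108227), the inducible form, stood at 11.3 CPM in mast cells (8.31 to 14.9), 64.4 in macrophages (49.5 to 82.4) and 138 in ILC2 (80.3 to 221). The ILC2 value rests on 17 UMIs in 6 of 49 cells, 41.2% of them in 1 cell. Most Ptgs2 of the stomach library, 58.5% of 325 UMIs, lay in cells of no class. The name of the set therefore did not hold for Ltc4s, Ptgs1 and Ptgs2, which were higher in another class than in mast cells.

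**Figure D1:**
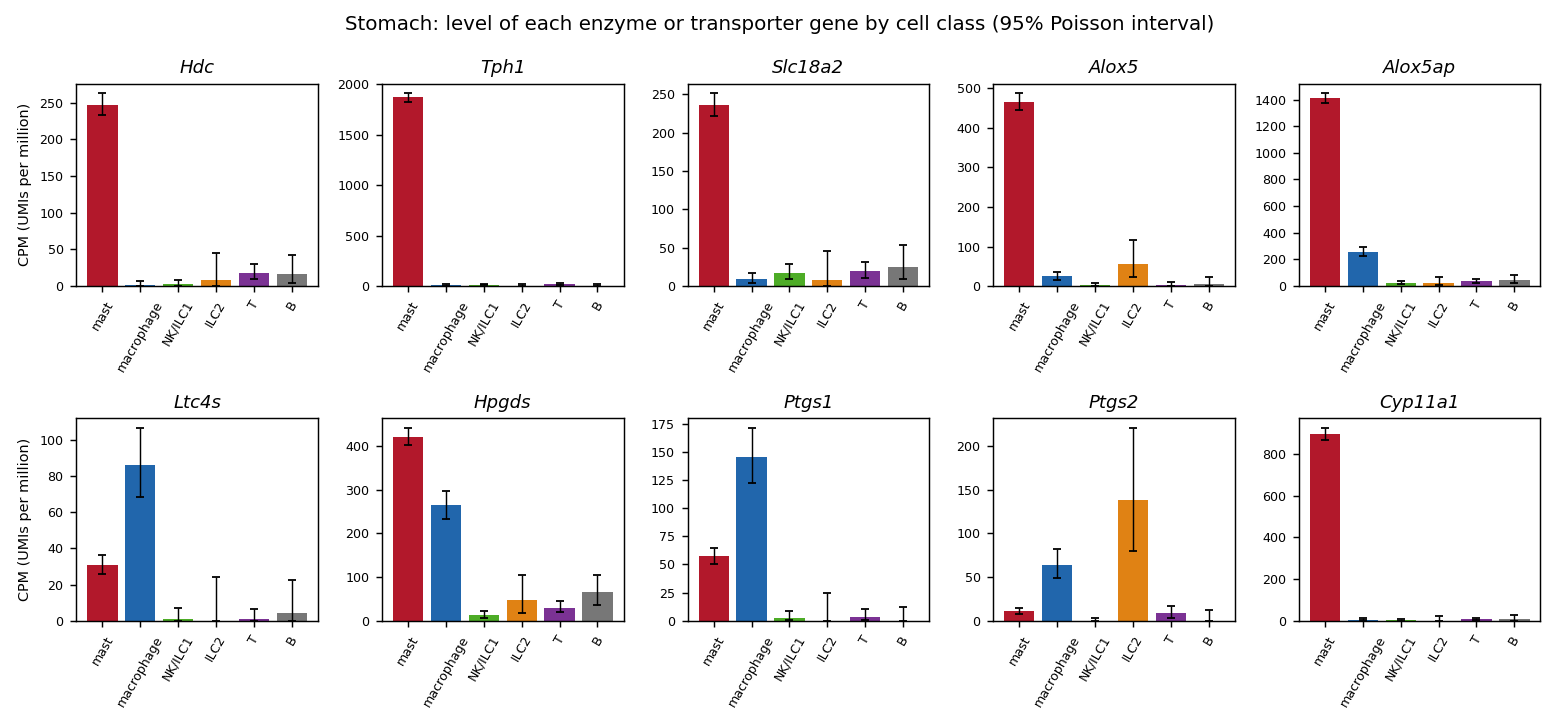
Level of each of the 10 genes in 6 stomach cell classes, in CPM on a linear axis that starts at 0 and differs between panels, with 95% Poisson intervals as error bars (at 0 UMIs the upper end is that of 3 UMIs). Hdc, Tph1, Slc18a2, Alox5, Alox5ap and Cyp11a1 are high in mast cells, at 236 to 1870.4 CPM, whereas macrophages exceed mast cells for Ltc4s, Ptgs1 and Ptgs2.

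Ratios in the stomach were called when they reached 2-fold with the interval excluding 1, among genes with at least 50 CPM in either class and 20 UMIs in all. Against macrophages 6 of 10 members were higher in mast cells and 3 lower, where 17.7% of all genes were higher and 24.9% lower. Hpgds was 1.60-fold higher (1.40 to 1.83) and fell short of 2-fold. Without cells above the 95th percentile of UMIs it was 1.38-fold higher, and with CPM taken without the mast cell proteases 1.83-fold. Taking CPM without the proteases also moved the ratio of Alox5ap to macrophages from 5.48 to 6.29. Against NK/ILC1 cells all 8 members that entered were higher (9.03% of all genes higher and 27.1% lower). The same held for 8 of 8 against T cells (9.50% higher, 26.7% lower) and 8 of 8 against B cells (16.0% higher, 21.8% lower). Against ILC2 8 of 9 were higher (9.17% of all genes) and Ptgs2 was lower (26.8%), at 12.2-fold higher in ILC2 (6.59 to 21.7). Ltc4s and Ptgs2 were too low to enter against NK/ILC1, T or B cells. No member reached 50 CPM in NK/ILC1 or T cells, where Alox5ap was highest at 24.6 and 37.5 CPM. All that entered there did so through mast cells, which left no room for a lower call. Against B cells the same applied to all but Hpgds (65.2 CPM in B cells). Against ILC2 it applied to all but Alox5 and Ptgs2 (56.7 and 138 CPM in ILC2). Against macrophages Hdc, Tph1, Slc18a2, Alox5 and Cyp11a1 (2.05 to 24.5 CPM in macrophages) entered through mast cells alone. Ltc4s and Ptgs2 (30.8 and 11.3 CPM in mast cells) entered through macrophages alone. Only Alox5ap, Hpgds and Ptgs1 reached 50 CPM in both of these classes. Counts of members called against any of the classes are read no further.

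Single cells carried several of the low values outside the mast gate. In stomach T cells, 1 cell held 66.7% of the 15 Hdc UMIs, and 1 cell held 83.3% of the 6 Cyp11a1 UMIs. Without the 1 cell with most UMIs in each class, the ratio of mast to T cells went from 13.6 to 40.2 for Hdc, from 103 to 192 for Tph1, from 123 to 734 for Cyp11a1 and from 1.33 to 4.17 for Ptgs2. For Alox5ap it went from 57.3 to 163 against NK/ILC1 cells and from 31.5 to 345 against B cells. Leaving out cells above the 95th percentile of UMIs moved the ratio of Alox5ap to 120.4 against T cells and 157 against NK/ILC1 cells, and that of Ltc4s against macrophages from 0.358 to 0.566. At 0.566 (interval 0.387 to 0.846) Ltc4s was 1.77-fold higher in macrophages, short of 2-fold, so that 2 of the 3 members called lower remained, Ptgs1 and Ptgs2. UMIs of the mast cell proteases Mcpt1 and Mcpt2, of which there were 407972 in the mast gate, also occurred in the other classes. At the ratio of Hdc to these proteases in mast cells the T cells would have held 0.671 Hdc UMIs, and they held 15. For Tph1 the same figures were 5.08 and 15, and for Cyp11a1 2.43 and 6. The UMIs held include those of the single T cells above, which gave 66.7% for Hdc and 83.3% for Cyp11a1. The part of free RNA in these values was not tested.

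The classes were then compared over libraries. UMIs were summed for each class and library with at least 10 cells, giving 3 mast sums (stomach, small intestine, cecum), 4 T cell sums, 3 macrophage sums (stomach, small intestine, colon) and 4 NK/ILC1 sums, and fitted with edgeR's quasi-likelihood test with library as a covariate. All 10 members were among the 8369 genes tested, and p-values were adjusted over all of them. The filter on low counts took the sums of all classes together, so a member could enter through mast cells alone. In the stomach the members stood at 0 to 24.6 CPM in NK/ILC1 cells and 1.21 to 37.5 CPM in T cells, which left little room for a lower call. Counts of higher members in the fit are therefore read no further. Nothing says that the libraries came from separate animals, so the p-values measure the spread between these sums only. ILC2 reached 10 cells in stomach alone and were not fitted.

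Against T cells 9 of 10 members were higher in mast cells, where 9.07% of all genes were higher and 13.1% lower, and none was lower. The largest differences were those of Alox5, with a log2 fold change of 9.71 ± 0.49 (SE, adjusted p = 6.65e-12), Tph1 at 9.18 ± 0.63 (adjusted p = 1.68e-09) and Cyp11a1 at 8.83 ± 0.43 (adjusted p = 2.08e-11). The smallest difference past the threshold was that of Hpgds, 2.90 ± 0.41 (adjusted p = 1.17e-05). T cells of the small intestine held Hpgds at 86.4 CPM, those of the colon at 80.2, those of the cecum at 62.1 and those of the stomach at 30.2, the lowest of the 4. T cells held Slc18a2 at 19.4 CPM in stomach, 20.7 in colon and 23.2 in cecum, with the highest level in small intestine (202 UMIs). Slc18a2 was 3.88 ± 0.25 higher in mast cells on the log2 scale (adjusted p = 2.57e-10). Ptgs2 did not pass, at 1.66 ± 0.69 (adjusted p = 0.0969).

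Against macrophages 6 members were higher (10.3% of all genes) and 3 lower (14.9%). Hdc, Tph1 and Cyp11a1 were 6.63 ± 0.74, 8.37 ± 0.87 and 7.70 ± 0.60 higher in mast cells on the log2 scale (adjusted p = 6.08e-07, 5.07e-07 and 1.85e-08). Slc18a2 was 4.63 ± 0.37 higher and Alox5 4.21 ± 0.44 higher (adjusted p = 8.80e-09 and 2.70e-07). Alox5ap was 2.16 ± 0.52 higher (adjusted p = 0.00356), a call that was lost without library as a covariate (log2 fold change 1.93, adjusted p = 0.0898) and without the stomach library (1.74, adjusted p = 0.0906). Ltc4s, Ptgs1 and Ptgs2 were lower in mast cells, with log2 fold changes of -2.15 ± 0.49, -2.34 ± 0.46 and -3.16 ± 0.62 (adjusted p = 0.00208, 0.000619 and 0.000851). Without the small intestine library, Ltc4s was at -1.61 (adjusted p = 0.0532). Without the stomach these 3 genes fell below the filter on low counts and were not tested. Hpgds did not pass in either direction, at 0.63 ± 0.40 (adjusted p = 0.288).

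Against NK/ILC1 cells all 10 members were higher, where 8.41% of all genes were higher and 11.4% lower. The log2 fold changes were 4.06 ± 0.31 for Slc18a2, 4.14 ± 0.87 for Ltc4s, 4.36 ± 0.82 for Ptgs1 and 4.78 ± 0.53 for Hpgds, and 6.80 to 8.72 for Alox5ap, Alox5, Hdc, Tph1 and Cyp11a1. Ptgs2 had no UMI in any of the 4 NK/ILC1 sums (adjusted p = 0.00852). In the stomach, set against 3 UMIs in that class, it was at least 3.05-fold higher in mast cells. The median log2 fold change of the 10 genes was 5.22 against T cells, 3.19 against macrophages and 7.09 against NK/ILC1 cells (5.79 with Ptgs2 at its bound). Over all genes it was -0.13, 0.04 and -0.04. The members were chosen as mast cell genes with earlier results of these data known, so this contrast was largely set by the choice. The 3 comparisons share the mast sums.

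**Figure D2:**
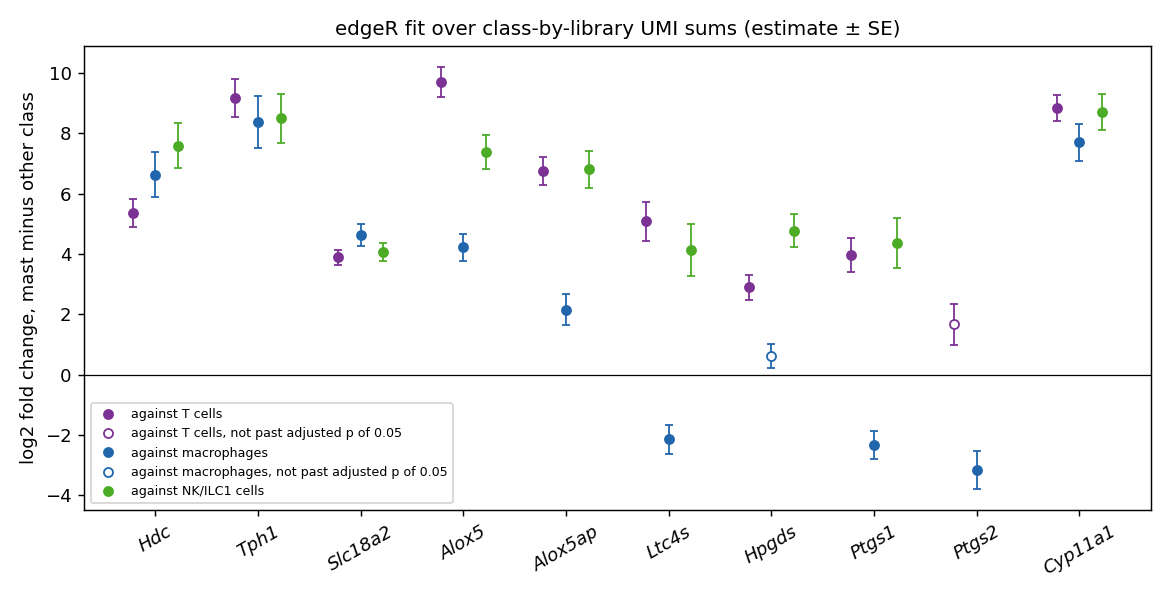
Log2 fold change of each gene, mast cells minus the other class, from the edgeR fit over 14 class-by-library sums, with the SE as error bars; open circles did not pass an adjusted p of 0.05. Tph1 and Cyp11a1 lie above 7 in all 3 comparisons, and Ltc4s, Ptgs1 and Ptgs2 lie below 0 against macrophages; Ptgs2 against NK/ILC1 cells is not drawn, since it had no UMI there.

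Further genes of the same pathways were taken from lists of 14 amine, 17 leukotriene, 16 prostaglandin and 9 steroid genes. Their counts stand beside the shares of all genes given above, 9.07% higher and 13.1% lower against T cells, 10.3% and 14.9% against macrophages, and 8.41% and 11.4% against NK/ILC1 cells. Of 34 calls on these genes, 18 held in every alternative that gave a value and 16 were lost in at least 1, of which 12 were lost without the stomach library. Of the amine list 4 genes were tested, and 2 were higher in mast cells against T cells, 2 against macrophages and 3 against NK/ILC1 cells, with none lower. Its median log2 fold change was 1.53, 1.61 and 2.04 in that order. Ddc, the decarboxylase that completes serotonin synthesis, stood at 202 CPM in stomach mast cells and 3.07 in macrophages, and was 5.63 ± 0.96 higher than in macrophages on the log2 scale (adjusted p = 0.000119). Its calls against T and NK/ILC1 cells (2.31 ± 0.60 and 4.05 ± 0.76) were lost without stomach, at 0.44 and 1.40 (adjusted p = 0.656 and 0.197), and the first also with DESeq2 (adjusted p = 0.0619) and without library as a covariate (1.57, adjusted p = 0.136). Gch1 and Pts make tetrahydrobiopterin, the cofactor of Tph1. Gch1 stood at 266 CPM in mast cells and 49.1 in macrophages and was 2.58 ± 0.46 higher (adjusted p = 0.000216), and Pts was higher than in NK/ILC1 cells (1.24 ± 0.33, adjusted p = 0.00862), but not without stomach (0.77, adjusted p = 0.438) or without library as a covariate (1.03, adjusted p = 0.0543). Spr, which acts in the same synthesis, stood at 50.5 CPM in mast cells and 52.1 in macrophages and passed no test. The serotonin transporter Slc6a4 stood at 37.6 CPM in stomach mast cells, with 1 UMI in macrophages and none in the other 4 stomach classes. The breakdown enzymes were near the detection limit in mast cells, at 1.88 CPM for Maoa, 1.64 for Maob and 0.704 for Hnmt.

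Of the leukotriene list 11 genes were tested, and 2 were higher and 4 lower against T cells, 1 higher and 4 lower against macrophages, and 2 higher and 3 lower against NK/ILC1 cells, with medians of -1.26, -0.56 and -0.17. The share higher than in macrophages, 1 of 11, was near that of all genes. Abcc1, the exporter of leukotriene C4, was higher in mast cells in all 3 comparisons, by 2.03 ± 0.37 against T cells, 1.35 ± 0.44 against macrophages and 1.70 ± 0.43 against NK/ILC1 cells (adjusted p = 0.000285, 0.0295 and 0.00607). The call against macrophages was lost when any 1 library was left out, with log2 fold changes of 1.14 to 3.20 and adjusted p of 0.0542 to 0.0890, with a gate of at least 10 Cpa3 UMIs (1.01, adjusted p = 0.0999) and without cells above the 95th percentile of UMIs (1.22, adjusted p = 0.0607), and that against NK/ILC1 cells without stomach (adjusted p = 0.0539). Pla2g4a, the phospholipase that frees arachidonic acid, was 5.49 ± 0.58 higher than in T cells (adjusted p = 8.26e-07). It stood at 40.6 CPM in stomach mast cells and 42.9 in macrophages. Lta4h, which makes leukotriene B4, was lower in mast cells, with log2 fold changes of -1.26 ± 0.33 against T cells and -1.47 ± 0.35 against NK/ILC1 cells (adjusted p = 0.00765 and 0.0033), the first of which was lost without small intestine (-0.93, adjusted p = 0.0864). Cysltr1, a receptor for these leukotrienes, and Dpep2, which trims leukotriene D4, were lower than in macrophages, with log2 fold changes of -5.93 ± 1.03 and -5.07 ± 0.88 (adjusted p = 0.00015 and 0.000158), with 2.11 and 2.35 CPM in stomach mast cells. Ggt5, which makes leukotriene D4, and Ltb4r1, a leukotriene B4 receptor, were also lower than in macrophages (-4.15 ± 0.83 and -4.35 ± 1.55, adjusted p = 0.000669 and 0.0438), and Ggt5 was lower than in T cells (-2.86 ± 0.84, adjusted p = 0.0157). The call of Ltb4r1 was lost in 5 of 11 alternatives, with DESeq2 at -1.67 (adjusted p = 0.531) and without cecum at -4.38 (adjusted p = 0.0537), and that of Ggt5 against T cells without small intestine (-3.06, adjusted p = 0.0588) and with only those 2 classes fitted (-2.18, adjusted p = 0.121). Mgst2, another enzyme able to make leukotriene C4, and the receptor gene Cysltr2 were lower than in T cells (-4.02 ± 0.48 and -3.76 ± 0.89) and NK/ILC1 cells (-2.10 ± 0.58 and -4.79 ± 0.86). Cotl1, which binds the Alox5 protein, stood at 739.6 CPM in stomach mast cells and passed no test. Stomach ILC2, which were not fitted, held the most Cysltr1 and Ltb4r1, at 178 CPM (22 UMIs) and 284 CPM (35 UMIs). Macrophages there held 64.4 and 23.5 CPM.

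Of the prostaglandin list 5 genes were tested, with 1 higher and 1 lower against T cells and against NK/ILC1 cells, and 3 lower against macrophages, with medians of -0.49, 0.60 and -2.03. Counts of 1 in 5 rest on single genes and are read no further. Hpgd, which inactivates prostaglandins and is a different gene from Hpgds, stood at 3.05 CPM in stomach mast cells and 209.6 in macrophages, a log2 fold change of -6.23 ± 0.53 (adjusted p = 2.21e-08). Tbxas1, thromboxane synthase, stood at 33.6 CPM in stomach mast cells and 128 in macrophages, a log2 fold change of -2.03 ± 0.52 (adjusted p = 0.00523), a call lost without stomach (-1.91, adjusted p = 0.266) and with DESeq2 (adjusted p = 0.0593). It was 5.74 ± 0.66 higher in mast cells than in T cells (adjusted p = 7.66e-07). Ptger4, a prostaglandin E2 receptor, was lower in mast cells in all 3 comparisons, with log2 fold changes of -1.43 to -2.22, and none of these calls held without stomach (-0.99 to -1.84, adjusted p = 0.0923 to 0.323), nor those against T and NK/ILC1 cells without library as a covariate (adjusted p = 0.146 and 0.152). Of the steroid list 3 genes were tested, and 1 was higher against T cells, 2 against macrophages and 1 against NK/ILC1 cells, with none lower and medians of 0.54, 1.71 and 0.41. Fdx1, the ferredoxin that passes electrons to Cyp11a1, stood at 55.6 CPM in stomach mast cells and 5.11 in macrophages, and was 3.23 ± 0.65 higher than in macrophages, 1.58 ± 0.43 higher than in T cells and 1.52 ± 0.48 higher than in NK/ILC1 cells (adjusted p = 0.000714, 0.00935 and 0.0269). All 3 calls were lost without stomach, at 2.93, 1.29 and 1.27 (adjusted p = 0.0902, 0.181 and 0.306), and the last 2 also with DESeq2, without library as a covariate and without small intestine (adjusted p = 0.0737 and 0.148 without small intestine). Its reductase Fdxr was higher against macrophages (1.71 ± 0.52, adjusted p = 0.0197), a call lost without small intestine (1.70, adjusted p = 0.0554), without colon (1.47, adjusted p = 0.0677) and without cells above the 95th percentile of UMIs (0.99, adjusted p = 0.1999). Tspo, a mitochondrial membrane protein, stood at 573 CPM in stomach mast cells and passed no test. Star, which carries cholesterol into mitochondria, stood at 9.16 CPM. Hsd3b1, Hsd3b6, Cyp17a1 and Cyp21a1, which act after Cyp11a1, were not listed for the stomach library, where every listed symbol was seen in at least 2 cells.

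Mast cells of the other libraries were few, and tissue, animal and library cannot be told apart. Tph1 stood at 923 CPM in small intestine (777 to 1089) and 373 in cecum (204 to 626), against 1870.4 in stomach, so that stomach was 2.03-fold higher than small intestine (1.72 to 2.41) and 5.02-fold higher than cecum (2.99 to 9.18). Cyp11a1 stood at 896 CPM in stomach, 504 in small intestine (398 to 630.1) and 346 in cecum (184 to 592), and its intervals in small intestine and cecum overlapped. Alox5ap stood at 1411, 740 (609.8 to 889.6) and 639 CPM (409.6 to 951) in the same order. Alox5 stood at 467, 340 (254 to 446) and 213 CPM (92.0 to 420), and its ratio of stomach to cecum went from 2.19 to 5.97 with a gate of at least 10 Cpa3 UMIs, which left 3 cecum cells and 1 Alox5 UMI. Stomach was the highest of the 3 for all 4 genes.

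Slc18a2 did not follow that order. It stood at 236 CPM in stomach, 295 in small intestine (215 to 394) and 373 in cecum (204 to 626), and the intervals of the ratios between libraries all included 1. Hdc stood at 247, 183 (122 to 265) and 133 CPM (43.2 to 311), and Hpgds at 421, 458 (357 to 579) and 266 CPM (128 to 490), with overlapping intervals in both genes. The cecum values rest on 5 Hdc and 10 Hpgds UMIs, of which 1 cell held 60% and 40%. Ltc4s and Ptgs1 had 4 UMIs each in small intestine mast cells and Ptgs2 had 2, and none of the 3 was seen in the 15 cecum cells, which allows up to 79.9 CPM. The 2 colon mast cells held 5 Alox5ap, 3 Tph1, 3 Hpgds, 2 Slc18a2 and 1 Hdc UMIs, and Cyp11a1 was not listed for colon. The proteases moved with these values: Mcpt1 stood at 32042 CPM in stomach, 67042 in small intestine and 137933 in cecum mast cells, while Cma1 and Tpsb2 stood at 12651 and 11264 CPM in stomach and at 0 in cecum. Their part in the differences was not tested.

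Small intestine macrophages, 24 cells, exceeded stomach macrophages for 4 members, Ptgs1 at 669.9 against 145 CPM (ratio 4.61, 3.33 to 6.32), Ltc4s at 294 against 85.9 CPM (3.42, 2.10 to 5.40), Ptgs2 at 199.8 against 64.4 CPM (3.10, 1.70 to 5.37) and Hpgds at 458 against 264 CPM (1.74, 1.21 to 2.44). Alox5ap went the other way, at 118 against 258 CPM (0.456, 0.216 to 0.853). Of the 17 Ptgs2 UMIs in small intestine macrophages, 1 cell held 52.9%. Within small intestine, Hpgds stood at 458 CPM in both mast cells and macrophages (interval of the ratio 0.667 to 1.52). Ltc4s was 11.2-fold and Ptgs1 25.6-fold higher in macrophages than in mast cells there (intervals 3.87 to 44.4 and 9.46 to 97.1).

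**Figure D3:**
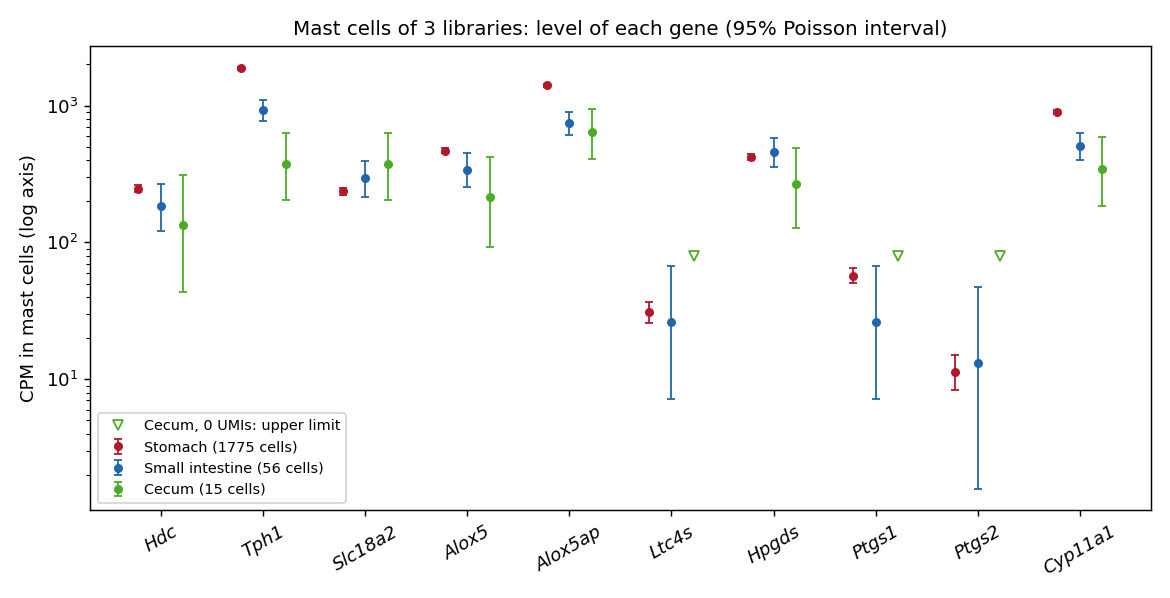
Level of each gene in mast cells of stomach (1775 cells), small intestine (56) and cecum (15), in CPM on a log axis, with 95% Poisson intervals; open triangles mark the upper limit for a gene with 0 UMIs. Tph1, Alox5ap and Cyp11a1 are highest in stomach, and Slc18a2 lies between 236 and 373 CPM in the 3 libraries.

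Most stomach mast cells held several of the 10 genes at once. In 1736 mast cells thinned to 1000 UMIs, the median cell held UMIs of 3 members (range 0 to 8), 40.3% held 4 or more and 0.461% (8 cells) held none. Macrophages held a median of 1 member and at most 3, and none was found in 43.3% of them. In NK/ILC1 cells 94.3% held none, in T cells 92.3%, in B cells 85.5% and in ILC2 83.7%. By gene, a UMI was found in 75.1% of mast cells for Tph1, 74.7% for Alox5ap, 56.3% for Cyp11a1, 35.4% for Hpgds and 35.3% for Alox5. Slc18a2 was found in 22.8%, Hdc in 14.7%, Ptgs1 in 5.01%, Ltc4s in 3.11% and Ptgs2 in 0.691%. The shares of NK/ILC1 cells measured the same way were 0% to 1.51%, where 0 of 265 cells allows up to 1.13%.

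**Figure D4:**
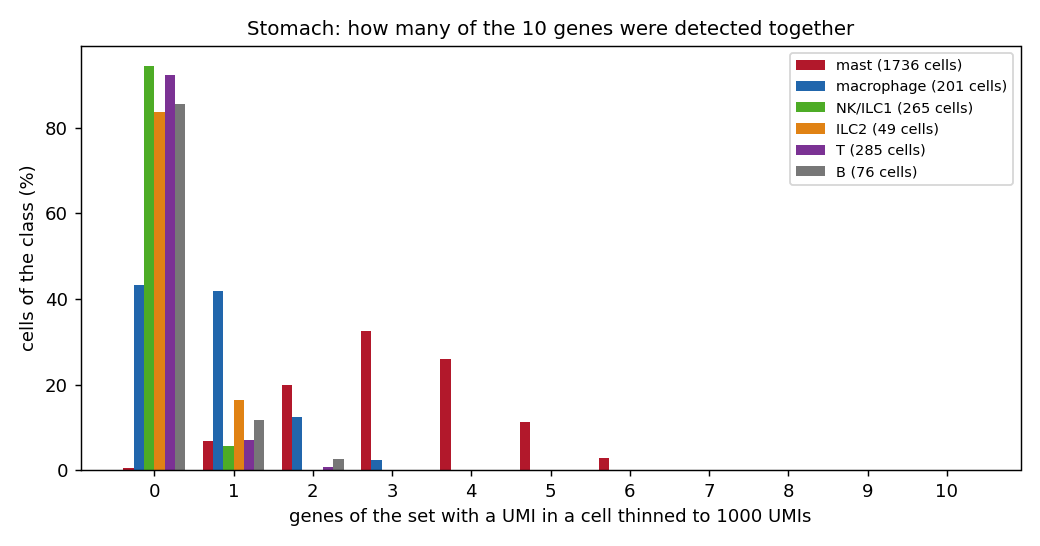
Share of cells in each stomach class by the number of the 10 genes with a UMI, after thinning to 1000 UMIs per cell. Mast cells peak at 3 genes with 32.6% of cells, macrophages lie between 0 and 3, and more than 83% of NK/ILC1, ILC2, T and B cells lie at 0.

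Hdc was spread unevenly among stomach mast cells, and Slc18a2 was not. The 2 genes had nearly the same mean, 0.229 and 0.263 UMIs per thinned cell, but the variance of Hdc was 2.03 times its mean and that of Slc18a2 1.03 times, where random sampling of equal cells gives a value near 1. The 10% of cells with most Hdc held 79.6% of its UMIs, against 51.3% for Slc18a2. No single cell accounted for this, since the cell with most Hdc held 1.71% of its 1053 UMIs. Tph1 had a ratio of 1.94 at a mean of 2.02 UMIs, whereas Alox5ap with a mean of 1.54 had 1.20 and Cyp11a1 with a mean of 0.921 had 1.23. Ptgs2 reached 1.88 on a mean of 0.0104, with 12 cells positive.

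**Figure D5:**
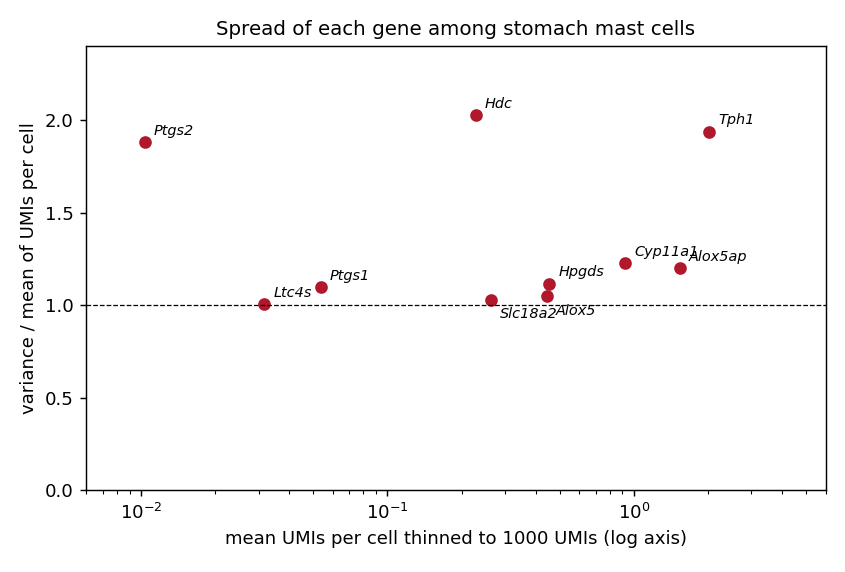
Variance divided by mean of the UMIs per stomach mast cell (1736 cells thinned to 1000 UMIs) against the mean on a log axis, with 1 point per gene and a dashed line at 1. Hdc, Tph1 and Ptgs2 lie at 1.88 to 2.03 and the other 7 genes at 1.01 to 1.23.

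The other members were found at similar shares in cells with and without Hdc. Of 255 thinned cells with an Hdc UMI 72.2% held Tph1, against 75.6% of the 1481 without. For Cyp11a1 the shares were 58.4% and 56.0%, for Slc18a2 19.2% and 23.4%, and for Alox5ap 72.5% and 75.1%. Cyp11a1 was found in 58.4% of cells with Tph1 and 50.2% of those without. Ptgs1 was found in 14.8% of the 54 cells with Ltc4s and in 4.70% of those without. These shares describe cells of 1 library and were not tested.

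The 62 stomach mast-gate cells with at least 3 UMIs of Mcpt8, a protease gene best known from basophils, carried more Hdc and less of several other members. Hdc stood at 383 CPM in them, 1.63-fold the level of the rest (1.36 to 1.95), and Alox5 at 579 CPM, 1.27-fold (1.09 to 1.46). Alox5ap stood at 840.3 CPM, 0.574-fold (0.510 to 0.644), and Tph1 at 1323 CPM, 0.688-fold (0.626 to 0.755). Cyp11a1 did not differ beyond counting error (0.932-fold, 0.827 to 1.05). These cells were deeper, with a median of 4911 against 1909 UMIs, and held Mcpt1 at 50156 CPM and Mcpt2 at 81951 CPM, against 30354 and 62052 CPM in the rest. Cd200r3, a gene of the basophil list that was found throughout the mast gate, was lower in them, at 490 against 734 CPM (0.668-fold, 0.571 to 0.778). Tpsb2 was also lower, at 3968 against 11944 CPM, and Kit stood at 1044 against 1016 CPM. The part of basophils in these values was not tested. Nearly all stomach mast cells, 1748 of 1775, had at least 3 UMIs of the connective-tissue-type genes Cma1, Mcpt4, Tpsb2, Tpsab1, Mrgprb1 and Mrgprb2. The other 27 had less Tph1 (1061 CPM, 0.564-fold, 0.434 to 0.721) and less Hdc (99.4 CPM from 6 UMIs, 0.399-fold, 0.146 to 0.871). Alox5ap was at 0.761-fold (0.587 to 0.971) and Alox5 at 464 CPM (0.995-fold, 0.659 to 1.44). The 197 cells with fewer than 3 UMIs of Cma1 and Mcpt4 held Tph1 at 0.681-fold and Hdc at 0.544-fold the level of the rest. Cyp11a1 stood at 0.799-fold (0.699 to 0.910) and Alox5ap at 0.869-fold (0.785 to 0.960) in them. Intervals of the other members included 1 in both splits, as did that of Cyp11a1 in the first.

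Cells just below the gate also held these transcripts. The 67 cells with 2 Cpa3 UMIs stood at 1685 CPM of Tph1 and 543 of Cyp11a1, the 97 cells with 3 at 2119 and 836, and the 85 with 1 at 534 and 153. The 788 cells with none stood at 24.5 and 10.2 CPM. The cells with 2 and 3 Cpa3 UMIs had median depths of 1192 and 1238 UMIs.

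Over the 19 class-by-library sums with at least 10 cells, Tph1 and Cyp11a1 had the highest correlation of any pair of members, a Pearson r of 0.99 of log2(CPM + 10), and Hdc with Cyp11a1 and Ltc4s with Ptgs1 followed at 0.97. The genes most like Tph1 were Atp8b5 (0.99), Ms4a2, the beta chain of the high-affinity IgE receptor (0.98), and Car8 (0.98), and those most like Cyp11a1 were Atp8b5, Cd34 and Ms4a2 (all 0.99). Hdc was closest to Itga2b (0.96), Gata2 (0.96) and Car8 (0.95). Slc18a2 was closest to Mcpt-ps1, Mcpt4 and Mcpt8 (all 0.96), protease genes of 1 family whose reads may be shared. Alox5 was closest to Thsd4 (0.96), 4932438H23Rik (0.94) and Prnp (0.94), and Alox5ap to the chemokine gene Ccl2 (0.98), Ier3 (0.96) and Mitf (0.95). Ltc4s was closest to Clmp (0.97), Gab2 (0.97) and Wdfy3 (0.96), and Ptgs1 to Clmp (0.96), Pla2g7 (0.96) and Sh3pxd2b (0.95). Hpgds had no gene above 0.89, with Asph at 0.89 and Ndst2 and Pdxk at 0.88. Ptgs2 was closest to the chemokine gene Cxcl1 (0.94), Art2a (0.93) and Slc7a8 (0.91). The correlation of Ltc4s was 0.18 with Tph1 and 0.16 with Cyp11a1, and that of Ptgs2 was -0.02 and -0.04. These values describe sums, compared among 7524 genes, that share libraries and, within a library, depth and free RNA. Only 3 of the sums are of mast cells. Tph1 and Cyp11a1 reached no more than 18.1 and 8.15 CPM in the other stomach classes. A gene confined to mast cells therefore has a high correlation with them for that reason alone.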

How the data were processed

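For each library the authors deposited a matrix of whole-number UMI counts, used here as raw counts. The submitters' processing notes name Cell Ranger, Seurat 3.0.0 and GRCm38 (mm10). Cells needed 200 or more detected genes (14373 of 14378 barcodes). Gates other than mast required a match to 1 gate only, fewer than 3 Cpa3 UMIs and at least 3 UMIs over C1qa, C1qb and C1qc (macrophages), 2 over Ncr1 and Klrb1c (NK/ILC1), 2 over Cd3d, Cd3e and Cd3g (T) or 2 of Cd79a (B); ILC2 needed Gata3 and at least 2 of Il1rl1, Il7r, Rora, Areg, Calca and Hs3st1, with no Ncr1 or Klrb1c. All but T cells lacked Cd3d, Cd3e and Cd3g, and all but B cells lacked Cd79a. Doublets were not called. Counts were summed per class and library to CPM with exact 95% Poisson intervals; ratios carry exact conditional binomial and shares exact (Clopper-Pearson) intervals, with a count of 0 given the limit of 3 counts. With 1 library per tissue no tissue was tested. Class sums were fitted with edgeR 4.0.16 (TMM, filterByExpr, quasi-likelihood, Benjamini-Hochberg over all genes), and the SE is the log2 fold change divided by the root of the F statistic. On simulated data for mast against T cells with 7695 genes, 40% of genes changed 2-fold and 98% changed 4-fold were recovered, and 0.0667% of unchanged genes were called. The changed genes were drawn from those with at least 50 CPM over all sums, and 1 dispersion was set for all genes. The rates of recovery do not extend to genes below that level. Apart from the changed genes all classes were drawn from 1 mean profile. The rate of false calls was therefore not measured under the class differences of the real sums. DESeq2 1.42.0 was an alternative. A symbol not listed in a library was entered as 0. All 10 members were named, with the pathway genes at 50 CPM or more in stomach mast cells or past a test, and the 3 genes most like each member. Some pathway genes at lower levels were named after their values were seen: the breakdown and later steroid enzymes, Slc6a4 and Star. The members and gene lists were chosen with earlier results of these data known, and the alternatives on Mcpt8, on single cells and on pathway genes were added after seeing the data. No mRNA length or genome sequence was used beyond RefSeq promoter windows and GENCODE M21 positions (GRCm38).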

Additional observations from a re-analysis of the deposited data

How the results depend on the processing

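The member counts, folds, stomach ratios and shares, and the folds of pathway genes past their test, were recomputed under alternatives of normalization, test, filters, gates and libraries; levels of single classes, marker sums and correlations were not. Folds were scored by direction and call, counts of genes and members by a set fold limit, and the other values by counting error. The fall of 9 and 10 members to 7 without stomach was thus scored as unchanged. A value that a filter removed was not scored, as for Ltc4s, Ptgs1 and Ptgs2 against macrophages without the stomach library. Of 1441 values scored, none reversed, 1352 were unchanged, 45 moved and 44 lost a call. These 44 are Alox5ap against macrophages in 2 alternatives, Ltc4s against macrophages in 1 of the fit and in 1 of the stomach ratios, and 40 of 472 values of pathway genes, added after seeing the data. The 3 members lower than in macrophages became 0 without the stomach library and 0 with only those 2 classes fitted, since Ltc4s, Ptgs1 and Ptgs2 then failed the filter on low counts. Over the libraries left out in turn, genes higher in mast cells ranged from 355 to 915 against T cells (759 with all libraries), 205 to 1095 against macrophages (858) and 246 to 817 against NK/ILC1 cells (704), and genes lower from 338 to 1195 (1094), 394 to 1393 (1243) and 289 to 954 (957); the members lower against macrophages ranged from 0 to 3. Leaving out stomach gave the lowest count each time, with 7 members higher against T cells and 7 against NK/ILC1 cells. Against macrophages 550 genes were higher without library as a covariate, and 736 were lower with sums of at least 3 cells. With only the 2 classes fitted, 445 genes were higher and 541 lower against macrophages, and 394 higher and 515 lower against NK/ILC1 cells. Shares of cells depend on depth: thinned to 500 UMIs, 57.4% of stomach mast cells held Tph1 and 9.08% Hdc. No paired analysis was possible because the tissue groups have 1 library each and share no pairs of samples. The library covariate sets classes of the same library against each other, but not every library held both classes of a comparison. Cecum gave a mast sum and no macrophage sum, and colon a macrophage sum and no mast sum. These 2 libraries entered that comparison through their T and NK/ILC1 sums. Without the covariate the 9 and 10 members higher against T and NK/ILC1 cells numbered 9 and 10 again. Depth limits Ltc4s, Ptgs1 and Ptgs2, which had 131, 244 and 48 UMIs in stomach mast cells, and all values in cecum and colon mast cells.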

Other observations

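Cells of the stomach that met no class gate held Ptgs2 at 107 CPM (interval 92.2 to 123, 190 UMIs in 57 of 545 cells), above mast cells at 11.3 and macrophages at 64.4 CPM. They held Alox5ap at 726 CPM (687 to 767), Tph1 at 369 CPM (341 to 398) and Cyp11a1 at 145 CPM (127 to 163). Cells with 1 or 2 Cpa3 UMIs and no Cd3 or Cd79a UMI accounted for 271 of the 655 Tph1 UMIs in that group. They accounted for 11 of the 190 Ptgs2 UMIs. Cells with at least 3 Cpa3 UMIs held 95.7% of all stomach Tph1 UMIs, and the mast gate held 92.0%. For Cyp11a1 the shares were 97.0% and 93.3%, and for Ptgs2 15.7% and 14.8%. The difference lay in cells of no class that also held a Cd3 or Cd79a UMI. B cells carried Hpgds in every library, at 129.9 CPM in cecum, 65.2 in stomach, 46.7 in colon and 26.6 in small intestine.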
